A study of Mus musculus with 24 samples.

Results

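The RNAs encoded by mitochondrial DNA were followed by RNA-seq in mouse lung adenocarcinoma cells, over 24 libraries that form 6 groups of 4. They were taken by gene symbol: the 13 messenger RNAs (mRNAs) ND1 to ND6, ND4L, CYTB, COX1 to COX3, ATP6 and ATP8, the 2 ribosomal RNAs (rRNAs) mt-Rnr1 and mt-Rnr2, and the 22 transfer RNAs (tRNAs). All 37 are annotated on the mitochondrial chromosome. The table of the shRNA libraries held 35 of them among 38937 rows, with TrnF and TrnK not in it, and the table of the siRNA libraries held 36 among 39310 rows, with TrnD not in it.

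The cells were cultured primary lung tumour cells, and the series' design text names a sort for GFP-positive, CD45-negative cells. S/S cells carry wild-type eIF2α, and A/A cells carry the form in which the phosphorylated serine is replaced by alanine, although the genotype label of both reads WT. In the first experiment S/S cells carried a scrambled shRNA, named S/S shControl here, or one directed at Atf4, named S/S shAtf4. S/S and A/A cells each received a control siRNA (S/S siControl, A/A siControl) or an siRNA against Chchd10 (S/S siChchd10, A/A siChchd10). The sources used here do not give times, doses or the number of animals behind the cells. A difference between A/A and S/S cells therefore cannot be told apart from one between the animals or cell lines they came from. The labels do not say whether replicates were separate cultures, so p-values measure the spread between these libraries alone, which may be technical. In bulk RNA, fewer cells of a type and less RNA per cell cannot be told apart.

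Mitochondrial DNA is a small circle that is transcribed from both strands into long RNAs, which are then cut, largely at the tRNAs that lie between the other genes, into single mRNAs, rRNAs and tRNAs. Its mRNAs encode core subunits of the respiratory chain and of ATP synthase, while the other subunits and all factors that copy, transcribe and process mitochondrial DNA come from nuclear genes. eIF2α phosphorylation slows general translation and raises that of the transcription factor Atf4, the arm of the stress response that mitochondrial faults also engage. Chchd10 is a small protein of the mitochondrial intermembrane space. Cells of many species also hold old copies of mitochondrial DNA inserted into nuclear chromosomes, and reads from such a copy and from its source can look alike.

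The position of each gene sets what its count can show, so the sequences that the results turn on are given first, 5′ to 3′ on the coding strand, from GENCODE M21 transcripts of GRCm38. TrnE, TrnG and TrnR are shown whole because their counts moved most and lie beside an mRNA. TrnE (tRNA for glutamate) lies at chrM:14071-14139 on the minus strand. Read 5′ to 3′ on that strand, it comes directly before ND6, which lies at 13552 to 14070. TrnG (glycine) lies at chrM:9391-9458 and TrnR (arginine) at chrM:9808-9875, both on the plus strand, on either side of ND3 at 9459 to 9806.
TrnE: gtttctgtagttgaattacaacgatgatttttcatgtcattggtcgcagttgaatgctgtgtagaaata
TrnG: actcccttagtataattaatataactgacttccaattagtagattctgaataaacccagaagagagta
TrnR: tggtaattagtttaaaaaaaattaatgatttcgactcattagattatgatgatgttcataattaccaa

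A search of the 37 sequences against GENCODE M21 transcripts found 1 nuclear stretch with nearly identical copies of neighbouring mRNA genes. Matches on 1 other chromosome, and matches opposite to the strand of a transcript, were left out. Between bases 6390 and 11042 of the mitochondrial chromosome (4653 bp) 7 mRNA genes matched, in the same order, 7 annotated pseudogenes on the minus strand of chromosome 1 between 24611535 and 24616197 (4663 bp). Bases between the pseudogenes were not compared, so ATP8 and the 5 tRNAs there, TrnG and TrnR among them, are placed in the stretch by position alone. The copies of COX2 (Gm28661), ATP6 (Gm10925), COX3 (Gm28437), ND4L (Gm10222) and the first 876 bases of ND4 (Gm28439) aligned without a mismatch. The copy of the last 483 bases of COX1 (Gm29216) carried the substitution A1066T and the copy of ND3 (Gm28438) the substitution T3C, each counted from the first annotated base of the mitochondrial gene, with the mitochondrial base first. The spacing between the aligned parts of neighbouring genes was equal in both places except from ND3 to ND4L, where it was 73 bp in mitochondrial DNA and 74 bp on chromosome 1. That gap holds the unaligned end of ND3 and TrnR, and the place of the extra base in it was not read. The first 60 bases of ND3 (chrM:9459-9518) and of its copy (chr1:24613060-24613119, minus strand) show the differing base in capitals, and those of ND4L (chrM:9877-9936) and of its copy Gm10222 (chr1:24612641-24612700, minus strand) show that no base differs.
ND3: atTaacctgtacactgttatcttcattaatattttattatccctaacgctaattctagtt
Gm28438: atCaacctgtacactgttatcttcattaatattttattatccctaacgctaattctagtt
ND4L: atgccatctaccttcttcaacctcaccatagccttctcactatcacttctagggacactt
Gm10222: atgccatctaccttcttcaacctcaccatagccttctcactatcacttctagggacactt

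By this position 6 mRNAs (COX2, ATP8, ATP6, COX3, ND3 and ND4L) and 5 tRNAs (TrnS1, TrnD, TrnK, TrnG and TrnR) lay wholly inside the copied stretch. COX1 lay inside for 31.3% of its length and ND4 for 63.6%. The other 5 mRNAs (ND1, ND2, ND5, ND6 and CYTB), both rRNAs and 17 tRNAs lay outside it. The split was made after the counts had been seen. Of the pseudogenes, only Gm10925 and Gm10222 had rows with counts in the tables. Among the matches kept, copies elsewhere in the nuclear genome matched less well. Their identity was 87.0% to 97.6% for the mRNAs, the highest being Gm13340 for COX1 on chromosome 2. Every count inside the stretch is uncertain, because the treatment of reads that match several places is not stated in the sources at hand.

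Overlaps set a second limit. ATP8 and ATP6 share 43 bp on the same strand (chrM:7927-7969), so a read there belongs to both. ND5, on the plus strand, and ND6, on the minus strand, share their last 14 bp, shown in capitals at the ends of both genes (chrM:13536-13565 and chrM:13552-13581). The kit marks strand, but the strand setting of the counting is not given, so RNA of one gene and RNA of the strand opposite to it cannot be told apart. Smaller overlaps of 1 to 7 bp joined ND4L and ND4, COX1 and TrnS1, TrnI and TrnQ, ND1 and TrnI, ND2 and TrnW, ATP6 and COX3, and TrnS2 and TrnL2. A tRNA is 59 to 75 bp long, so a sequenced fragment that covers one usually reaches into its neighbours.
ATP8 and ATP6: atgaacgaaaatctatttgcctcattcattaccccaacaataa
ND5 end: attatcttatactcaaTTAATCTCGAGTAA
ND6 end: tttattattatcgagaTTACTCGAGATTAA

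Total counts per library were 14067290 to 70932804 in the shRNA table and 42863650 to 75409451 in the siRNA table. The mRNAs held 1.26% to 2.00% of all counts across the 24 libraries. Atf4 was lower with its shRNA by 1.33 on the log2 scale (fold change -1.33, SE 0.20, adjusted p = 0.033), and Chchd10 changed by -2.76 with its siRNA in S/S cells and by -2.27 in A/A cells. A/A siControl cells already had less of both transcripts than S/S siControl cells (-1.66 for Atf4 and -2.25 for Chchd10). Epithelial markers carried counts, with 6 epithelial genes summing to 3931 to 6726 CPM (counts scaled to the same total in each library) over all libraries. In S/S shControl and in S/S shAtf4 cells 1 of the 6 had no count in the group. Of 9 alveolar type 2 markers, only 2 had a mean of at least 1 CPM in each of these groups. Markers of leukocytes summed to at most 4.63 CPM, those of endothelium to at most 3.10 CPM and those of fibroblasts to at most 18.3 CPM, the last in S/S shControl cells.

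Levels per kilobase differed between mRNAs far more than between groups. In S/S siControl cells the mean level was 5066 CPM per kilobase for COX1, the catalytic subunit of cytochrome oxidase, 2390 for CYTB, the cytochrome b of complex III, and 2303 for the complex I subunit ND1. The complex I subunits ND2, ND5, ND4 and ND6 had 1339, 601, 598 and 510 CPM per kilobase. Each level was divided by the whole length of the gene. Of that length 31.3% of COX1 and 63.6% of ND4 lie inside the copied stretch, where counts are uncertain. The levels of COX1 and ND4, and the rank of ND4 among these genes, are therefore uncertain too. The 6 mRNAs inside the copied stretch lay between 2.48 (ND4L) and 40.2 (ND3) CPM per kilobase, with a median of 6.98. They include COX2 and COX3, the other core subunits of cytochrome oxidase, and ATP6 and ATP8, the mitochondrial subunits of ATP synthase. In S/S shControl cells, counted in the other table, the same 6 spanned 2.55 to 16.6 CPM per kilobase and the remaining 7 spanned 575 to 4043. The 6 inside mRNAs together held 0.191% ± 0.013 (SD, n = 4) of the mRNA counts of S/S siControl cells. Their share was 0.0973% ± 0.010 (SD, n = 4) in A/A siControl cells, where the highest library lay below the lowest of S/S siControl. At both edges of the stretch neighbours on the same long transcript stood far apart, with 5066 CPM per kilobase for COX1 beside 8.12 for COX2, and 2.48 for ND4L beside 598 for ND4.

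**Figure D1:**
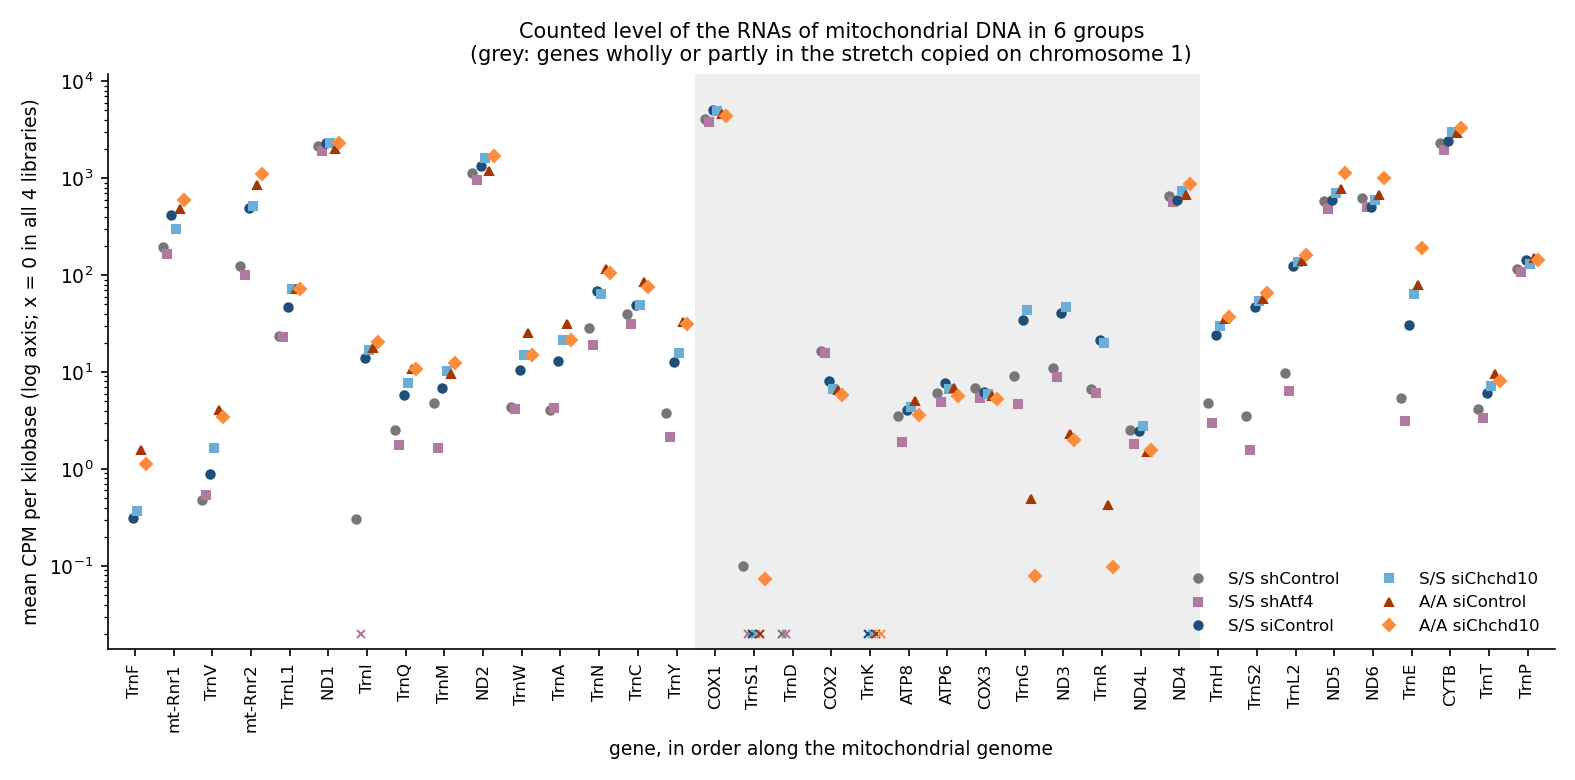
Mean level of each RNA of mitochondrial DNA in CPM per kilobase (log axis), in gene order, for the 6 groups of 4 libraries; crosses mark rows at 0 in all 4 libraries. Rows wholly inside the grey stretch lie far below COX1, ND4 and the mRNAs outside it in every group, and TrnG, ND3 and TrnR lie lower in A/A than in S/S cells.

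The 3 tRNAs TrnS1, TrnD and TrnK inside the stretch had at most 2 counts summed over any group, so no difference was detectable for them. The tRNA rows as a whole held 0.00152% to 0.00658% of all counts (group means). The highest tRNA rows in the siRNA table were TrnL2, TrnP, TrnE and TrnN, and in the shRNA table TrnP, TrnC, TrnL1 and TrnN. The rRNA rows held 0.104% to 0.246% of the counts in the siRNA libraries and 0.0249% to 0.0477% in the shRNA libraries. The labels do not say whether rRNA was removed, and they name polyA RNA as the molecule beside a kit for total RNA. The 2 tables were normalised separately, so these shares set levels of different experiments side by side without a test.

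In A/A cells 3 neighbouring rows inside the copied stretch, ND3, TrnG and TrnR, were far lower than in S/S cells, under either siRNA. ND3 encodes a small core subunit of complex I. In S/S siControl libraries ND3 had 13.4, 15.2, 15.2 and 12.1 CPM, and in A/A siControl libraries 1.49, 0.751, 0.409 and 0.514 CPM. In S/S siChchd10 libraries it had 13.9, 18.1, 18.9 and 14.9 CPM, and in A/A siChchd10 libraries 0.511, 0.854, 0.638 and 0.762 CPM. No A/A library came near an S/S library, and replicate 1 of A/A siControl was the highest of the 8 A/A libraries. The log2 fold change of A/A against S/S was -4.12 (SE 0.23, adjusted p = 2.0e-10) with the control siRNA and -4.55 (SE 0.23, adjusted p = 4.6e-11) with siChchd10. Without replicate 1 of A/A siControl the former was -4.64.

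TrnG, directly before ND3, had 2.03, 2.06, 2.68 and 2.60 CPM in S/S siControl libraries, and 0.132, 0, 0 and 0 CPM in A/A siControl libraries. Summed over 4 libraries, 460 counts stood against 7, a ratio of S/S over A/A of 66.8 (exact 95% interval 32.2 to 167, counting error only). All 7 counts came from replicate 1, and without it the ratio was at least 115, taking the floor of 3 counts over the group. With siChchd10, 582 counts stood against 1, a ratio of 659 (118 to 26086). TrnR, directly after ND3, had between 1.09 and 2.06 CPM in S/S siControl libraries and 0.0567, 0.0395, 0.0204 and 0 CPM in A/A siControl libraries. Its 287 counts against 6 gave a ratio of 48.6 (22.1 to 134), and 268 against 2 with siChchd10 a ratio of 152 (41.6 to 1260). For both tRNAs the A/A libraries lay below all S/S libraries, and both calls held in the fit (TrnG adjusted p = 8.5e-13 and TrnR 8.5e-13 with the control siRNA).

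The row next along the stretch moved with its nuclear copy in opposite directions. ND4L, another complex I subunit, had 0.827, 0.741, 0.608 and 0.768 CPM in S/S siControl libraries and 0.416, 0.375, 0.511 and 0.471 CPM in A/A siControl libraries. It was lower in A/A cells by a log2 fold change of -0.72 (SE 0.24, adjusted p = 0.0093), and of -0.82 (SE 0.23, adjusted p = 0.0027) with siChchd10. Gm10222, its identical copy on chromosome 1, had 1.02, 0.741, 0.684 and 0.789 CPM in S/S siControl libraries and 7.45, 8.14, 7.76 and 8.76 CPM in A/A siControl libraries. Each A/A library had 923% to 1085% of the S/S mean, and the log2 fold change was 3.32 (SE 0.14, adjusted p = 2.3e-18). With siChchd10 it was 3.20 (SE 0.14, adjusted p = 3.9e-18). The ratio of ND4L to Gm10222 counts was 0.919 ± 0.084 in S/S siControl and 0.0554 ± 0.0081 in A/A siControl libraries (SD, n = 4 each). Gm10222 was picked out after its values were seen. It is no gene of mitochondrial DNA by the rule, and with no mismatch to ND4L the table cannot say which of the 2 places its reads came from.

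The pair of ATP6 and its own identical copy did not show this. ATP6 had 5.29, 5.98, 4.92 and 4.74 CPM in S/S siControl libraries and 5.96, 4.23, 4.68 and 3.88 CPM in A/A siControl libraries. Gm10925 had 5.72, 6.07, 4.56 and 5.01 CPM and 6.09, 4.68, 4.21 and 4.29 CPM in the same libraries, so both rows overlapped between genotypes. The count ratio of ATP6 to Gm10925 was 0.984 ± 0.068 in S/S siControl and 0.974 ± 0.098 in A/A siControl (SD, n = 4 each). Of the differences found between mitochondrial DNA and its copy, T3C lies near the start of ND3, beside TrnG, and the extra base lies somewhere in the gap that holds the end of ND3 and TrnR. The third, A1066T, lies in COX1, where A/A siControl libraries had 6622 to 7407 CPM and S/S siControl libraries 7539 to 8224 CPM. Which sequence the A/A and S/S cells carry at these bases was not tested, since the tables hold counts and no reads.

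**Figure D2:**
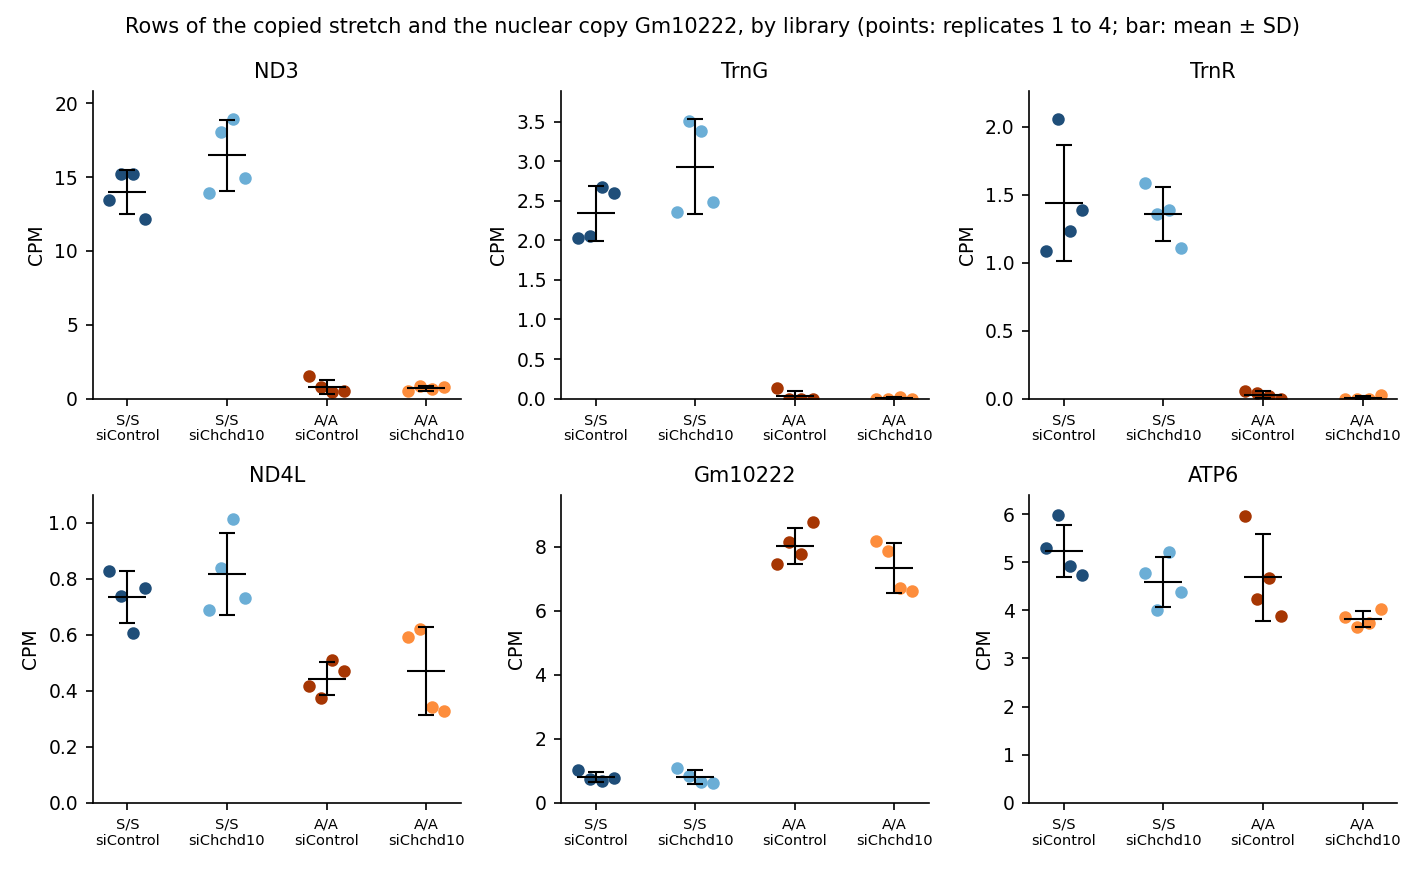
CPM in each of the 16 siRNA libraries for rows inside the copied stretch: ND3, TrnG, TrnR and ND4L, the nuclear copy Gm10222, and ATP6. ND3, TrnG and TrnR lie near 0 in all 8 A/A libraries, Gm10222 is 6.64 to 8.76 CPM there against 0.605 to 1.08 in S/S libraries, and ATP6 overlaps between groups.

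Over the 13 mRNAs, 3 were higher and 6 lower in A/A siControl than in S/S siControl cells. Of all 18138 genes tested 70.2% were called in this comparison (35.6% higher and 34.7% lower), so 9 of 13 is close to the background. The median log2 difference of the 13 was -0.16 against 0.01 over all genes, and -0.08 without S/S siControl replicate 2. Among those outside the stretch, ND6 (0.41, SE 0.085), ND5 (0.37) and CYTB (0.28) were higher, and ND1 (-0.20) and ND2 (-0.19) were lower. COX1 (-0.14) and COX2 (-0.31) were also lower, but COX1 lost its call in 5 and COX2 in 2 of 8 fits that left out 1 library. ND4 (0.16), ATP6 (-0.16), ATP8 (0.29) and COX3 (-0.17) did not pass. Libraries of the 2 groups did not overlap for 8 of the 13 mRNAs, beside 64.6% of all genes.

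Neighbours from ND5 to CYTB shared a direction. ND5 and ND6, which end against each other on opposite strands, were both higher, and CYTB, next along the plus strand, was higher too. ND5 had 1092, 1112, 1151 and 1032 CPM in S/S siControl libraries and 1394, 1337, 1448 and 1499 CPM in A/A siControl libraries. ND6 had 272.9, 264.9, 267.7 and 253.5 CPM against 357.7, 326.4, 358.5 and 364.8 CPM. For both genes the lowest A/A library lay above the highest S/S library. The ratio of ND6 to ND5 was close to constant, at 24.2% ± 0.77 and 24.8% ± 0.61 of the ND5 counts (SD, n = 4 each).

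The rRNAs and the tRNAs outside the stretch were higher in A/A siControl cells more often than lower. mt-Rnr2, the rRNA of the large ribosomal subunit, had 923, 735, 740.5 and 738 CPM in S/S and 1517, 1211, 1296 and 1390 CPM in A/A libraries, a log2 fold change of 0.79 (SE 0.09, adjusted p = 7.6e-07). mt-Rnr1, of the small subunit, differed by 0.20 (adjusted p = 0.053). Of the 17 tRNAs outside the stretch 16 passed the filter on low counts, and 12 of these were higher and 0 lower, beside 35.6% of all genes higher. Their median difference was 0.70 (range 0.04 to 2.15). Under siChchd10 the A/A against S/S comparison, which shares no library with this one, called 70.5% of all genes, 34.7% as higher. There 6 of the 16 tRNAs were higher, close to that background share, and 0 lower, with a median of 0.25.

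TrnV, between the rRNAs, showed the largest tRNA rise, 2.15 (SE 0.49, adjusted p = 3.4e-04), on few counts: 12 in S/S siControl and 56 in A/A siControl over 4 libraries. TrnE rose by 1.38 (SE 0.12) and TrnY, the tRNA for tyrosine, by 1.37 (SE 0.17). TrnY had 0.922, 0.833, 0.912 and 0.747 CPM in S/S and 2.31, 1.94, 2.64 and 1.95 CPM in A/A siControl libraries. The 2 groups did not overlap. TrnN, the tRNA for asparagine, was higher by 0.74 (SE 0.09), while TrnP, for proline, at 9.50 to 9.75 CPM in S/S and 9.35 to 10.4 CPM in A/A libraries, did not pass (0.04, adjusted p = 0.61), nor did TrnL2 (0.20, adjusted p = 0.053).

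With siChchd10 in both genotypes, 2 mRNAs were higher and 4 lower in A/A than in S/S cells, beside 70.5% of all genes called. ND5 was higher by 0.69 and ND6 by 0.77, and COX1 (-0.16), ATP6 (-0.26), ND3 and ND4L were lower. Libraries did not overlap for 4 of the 13, beside 63.7% of all genes. The call of COX1 was lost in 3 and that of ATP6 in 7 of 8 fits that left out 1 library. CYTB (0.15), ND4 (0.23), ND1 (0.02), ND2 (0.05), COX2 (-0.23), COX3 (-0.17) and ATP8 (-0.26) did not pass. Both rRNAs were higher, mt-Rnr1 by 0.98 and mt-Rnr2 by 1.08. TrnE (1.58), TrnV (1.05), TrnY (0.97) and TrnN (0.70) were higher, and the call of TrnV was lost in 5 of 8 fits that left out 1 library.

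Summed marker levels moved along with genotype and with siChchd10. Summed CPM of 9 alveolar type 2 markers was 140 to 152 in S/S siControl, 155 to 181 in S/S siChchd10, 444 to 500 in A/A siControl and 1321 to 1574 in A/A siChchd10 libraries. A few genes carried these sums, since 3, 3, 3 and 5 of the 9 had a mean of at least 1 CPM, in the same order. The summed CPM of 6 epithelial genes was 5284 to 5896, 5912 to 6318, 4112 to 4271 and 3931 to 4279 in the same order, and that of 5 fibroblast markers 3.84 to 4.93, 5.01 to 7.02, 4.49 to 5.21 and 2.17 to 2.38. A mixed list of non-coding RNAs and histone mRNAs, among them Malat1, Neat1, Gas5 and Snhg1, was summed as well. Its CPM was 588 to 1050, 714 to 997, 946 to 985 and 491 to 695 in the same order. Malat1 alone had 620 CPM of a mean sum of 846 in S/S siChchd10 libraries. Of 10 tested RNAs of that list 4 were higher and 0 lower in A/A siControl cells (35.6% of all genes higher and 34.7% lower), and 2 were higher and 6 lower with siChchd10 in A/A cells (26.5% and 27.2%). The part of these in the differences of mitochondrial RNA was not tested.

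Chchd10 knockdown in S/S cells raised 3 of the 13 mRNAs and lowered 0, beside 28.0% of all genes called (15.0% higher). The median difference of the 13 was 0.16 against 0.00 over all genes, but 0.04 without S/S siChchd10 replicate 3 and 0.08 without S/S siControl replicate 3. The siChchd10 comparisons share their control libraries with the comparison of genotypes under siControl, so the values are only set side by side. CYTB had 2733, 2827, 2831 and 2547 CPM with the control siRNA and 3287, 3670, 3613 and 3123 CPM with siChchd10, a rise of 0.32 on the log2 scale (SE 0.09, adjusted p = 0.0082). ND2, with 1420, 1408, 1402 and 1330 CPM against 1595, 1784, 1722 and 1645 CPM, rose by 0.28 (SE 0.06, adjusted p = 3.1e-04). In both genes the 4 knockdown libraries lay above the 4 controls. ND4 rose by 0.30 (adjusted p = 0.046), a call lost in 7 of 8 fits that left out 1 library and in 4 of 7 other settings. ND5 (0.22, adjusted p = 0.080) and ND6 (0.22, adjusted p = 0.069) did not pass, although their libraries did not overlap either. In all 5 mRNAs were separated in this way, beside 25.5% of all genes.

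The other mRNAs did not pass in S/S cells. ND1 differed by -0.01 and COX1, which carried 47.8% of the mRNA counts in the controls, by -0.05. The 6 inside the stretch lay between -0.26 (COX2) and 0.23 (ND3). The ratio of COX1 to CYTB counts was 2.87 ± 0.092 (SD, n = 4) with the control siRNA and 2.22 ± 0.13 (SD, n = 4) with siChchd10. COX1 and CYTB therefore did not keep their proportion. Of the rRNAs, mt-Rnr1 was lower with siChchd10, at 269, 267, 292 and 316 CPM against 428, 426, 382 and 373 CPM (log2 fold change -0.49, SE 0.09, adjusted p = 6.3e-04). mt-Rnr2 differed by 0.07 (adjusted p = 0.64), and the ratio of mt-Rnr2 to mt-Rnr1 was 1.95 ± 0.18 in the controls and 2.88 ± 0.11 with siChchd10.

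In A/A cells 5 mRNAs rose and 1 fell with siChchd10, beside 53.7% of all genes called (26.5% higher and 27.2% lower). All 5 that rose encode subunits of complex I, as do most of the 13 mRNAs. Of the 7 mRNAs not wholly inside the stretch, only CYTB and COX1 do not. ND6 had 357.7, 326.4, 358.5 and 364.8 CPM with the control siRNA and 597.4, 597.7, 448.5 and 454.5 CPM with siChchd10, a rise of 0.58 (SE 0.084, adjusted p = 2.3e-05). ND5 rose by 0.54 (SE 0.09, adjusted p = 7.6e-05), with 2373, 2382, 1766 and 1759 CPM with siChchd10. In both genes the knockdown libraries lay above all controls, and replicates 1 and 2 lay well above replicates 3 and 4. ND2 (0.51), ND4 (0.37) and ND1 (0.21) also rose, and ND4 lost its call when the 2 groups were fitted by themselves. ATP6 fell by 0.30 (adjusted p = 0.034), a call lost in 5 of 8 fits that left out 1 library. CYTB differed by 0.19 (adjusted p = 0.078), COX1 by -0.06, COX2 by -0.18, COX3 by -0.09, ATP8 by -0.45, ND3 by -0.20 and ND4L by 0.06, none of which passed. The median of the 13 was 0.06 against -0.01 over all genes, and 3 mRNAs had separated libraries, beside 49.9% of all genes.

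Whether the 2 genotypes responded differently to siChchd10 was tested by the interaction, the effect in A/A minus that in S/S cells, for which 35.6% of all genes were called. ND1 (0.22, SE 0.08, adjusted p = 0.039), ND2 (0.23, SE 0.08, adjusted p = 0.021) and ND6 (0.36, SE 0.12, adjusted p = 0.028) passed, all with the more positive effect in A/A cells. These 3 of 13 are below the background share, and ND1 lost its call in 6 of 16 fits that left out 1 library. ND5 missed the threshold (0.32, adjusted p = 0.060). Only 1 of the 13 mRNAs was called without A/A siChchd10 replicate 2, where ND2 was lost, or without S/S siChchd10 replicate 1, where ND6 was lost. The remaining 9 lay between -0.55 (ATP8) and 0.08 (COX2), with -0.14 for CYTB, 0.07 for ND4, -0.02 for COX1, -0.11 for ATP6, -0.44 for ND3, -0.09 for ND4L and -0.00 for COX3.

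mt-Rnr1 went in opposite directions in the 2 genotypes. It rose in A/A cells, from 479, 445, 455 and 474 CPM to 554, 625, 623 and 448 CPM (log2 fold change 0.28, SE 0.09, adjusted p = 0.015), a call lost when the 2 groups were fitted by themselves, and replicate 4 with siChchd10 lay among the controls. The interaction was 0.77 (SE 0.13, adjusted p = 2.1e-04). mt-Rnr2 rose in A/A cells by 0.36 (SE 0.09, adjusted p = 0.0030), with an interaction of 0.29 (adjusted p = 0.088).

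**Figure D3:**
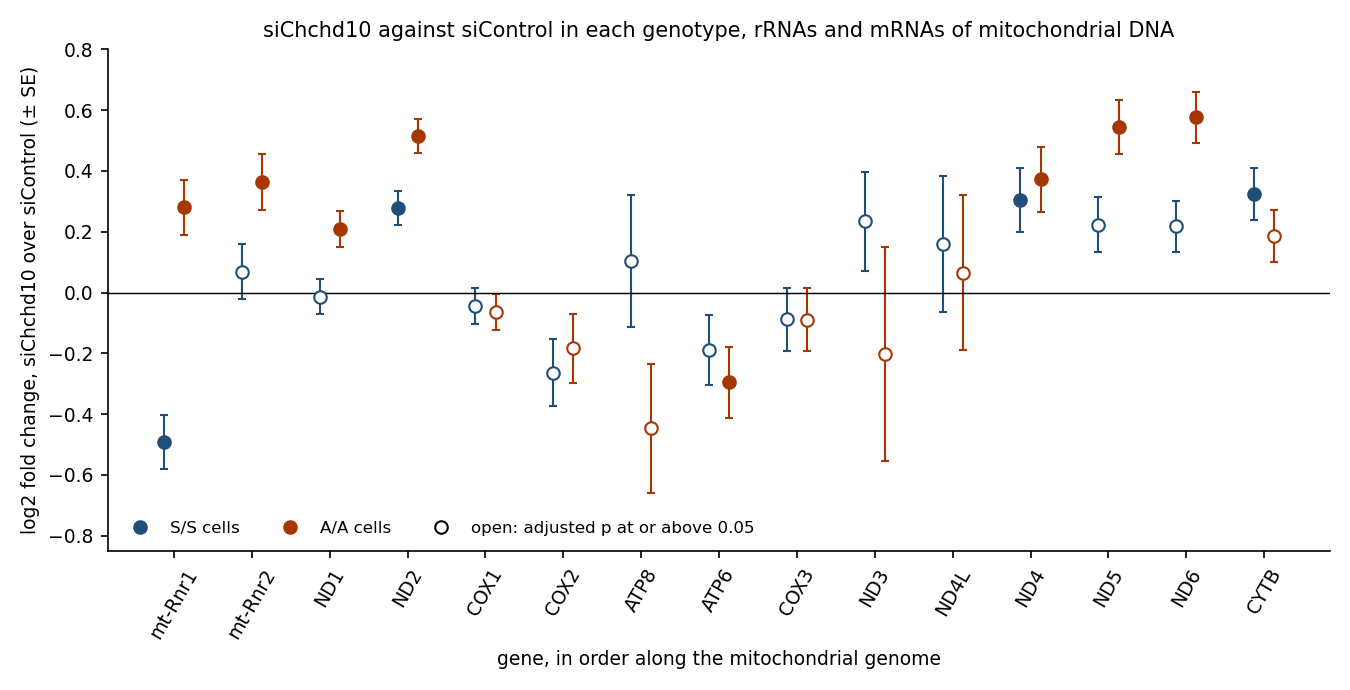
Log2 fold change of siChchd10 against siControl in S/S and in A/A cells for the mRNAs and rRNAs of mitochondrial DNA, with standard errors from the fit. ND5 and ND6 rose by 0.54 and 0.58 in A/A cells, and mt-Rnr1 lay on opposite sides of 0 in the 2 genotypes.

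Among the tRNAs that passed the test with siChchd10, TrnE changed most, and it rose in both genotypes. In S/S libraries it had 2.20, 1.89, 2.11 and 2.22 CPM with the control siRNA, then 4.02, 4.51, 4.11 and 4.86 CPM with siChchd10. In A/A libraries it had 5.83, 4.88, 5.56 and 5.61 CPM with the control siRNA, then 14.8, 15.5, 10.6 and 11.6 CPM with siChchd10. These 4 groups followed each other without overlap. The log2 fold change of siChchd10 was 1.06 (SE 0.13, adjusted p = 1.9e-07) in S/S and 1.26 (SE 0.10, adjusted p = 3.7e-11) in A/A cells, and the interaction did not pass (0.20, SE 0.16, adjusted p = 0.37). Its minus-strand neighbour ND6, joined to it without a gap, moved less. TrnE counts per 100 ND6 counts were 0.795 ± 0.067 in S/S siControl, 1.43 ± 0.16 in S/S siChchd10, 1.55 ± 0.055 in A/A siControl and 2.50 ± 0.10 in A/A siChchd10 libraries (SD, n = 4 each). A fragment over TrnE can reach into ND6 on the one side or, on the other strand, towards CYTB after 5 bp.

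TrnW, the tRNA for tryptophan, and TrnA, the tRNA for alanine, lie 1 bp apart on opposite strands just after ND2 and moved together. In S/S cells TrnW had 0.709, 0.518, 0.817 and 0.747 CPM with the control siRNA, then 0.938, 0.917, 0.916 and 1.29 CPM with siChchd10, a rise of 0.54 (SE 0.19, adjusted p = 0.034). In A/A cells it went from 1.68, 1.78, 1.66 and 1.63 CPM to 1.02, 1.22, 0.894 and 0.867 CPM, a fall of 0.76 on the log2 scale (log2 fold change -0.76, SE 0.17, adjusted p = 4.1e-04). Neither genotype showed an overlap between its 2 groups. TrnA rose by 0.72 (adjusted p = 0.0014) in S/S cells, from 0.832 to 1.08 CPM up to 1.26 to 1.68 CPM, and in A/A cells its log2 fold change was -0.58 (adjusted p = 0.0015). Their interactions were -1.30 (SE 0.26, adjusted p = 2.2e-04) and -1.29 (SE 0.22, adjusted p = 4.1e-05). ND2, beside TrnW, rose in both genotypes.

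In S/S cells 4 of the 16 tested tRNAs outside the stretch rose and 0 fell, beside 28.0% of all genes called and 15.0% higher, and in A/A cells 1 rose and 2 fell, beside 26.5% higher and 27.2% lower. TrnL1, which follows mt-Rnr2 without a gap, rose in S/S cells from 3.17, 3.37, 3.69 and 3.73 CPM to 5.04, 5.86, 4.89 and 5.95 CPM (0.64, SE 0.17, adjusted p = 0.0078) and differed by -0.01 in A/A cells. Its interaction of -0.65 (adjusted p = 0.037) was lost in 10 of 16 fits that left out 1 library. TrnN, TrnP and TrnL2 did not pass in either genotype. Their differences lay between -0.17 (TrnP in S/S cells) and 0.18 (TrnL2 in A/A cells).

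**Figure D4:**
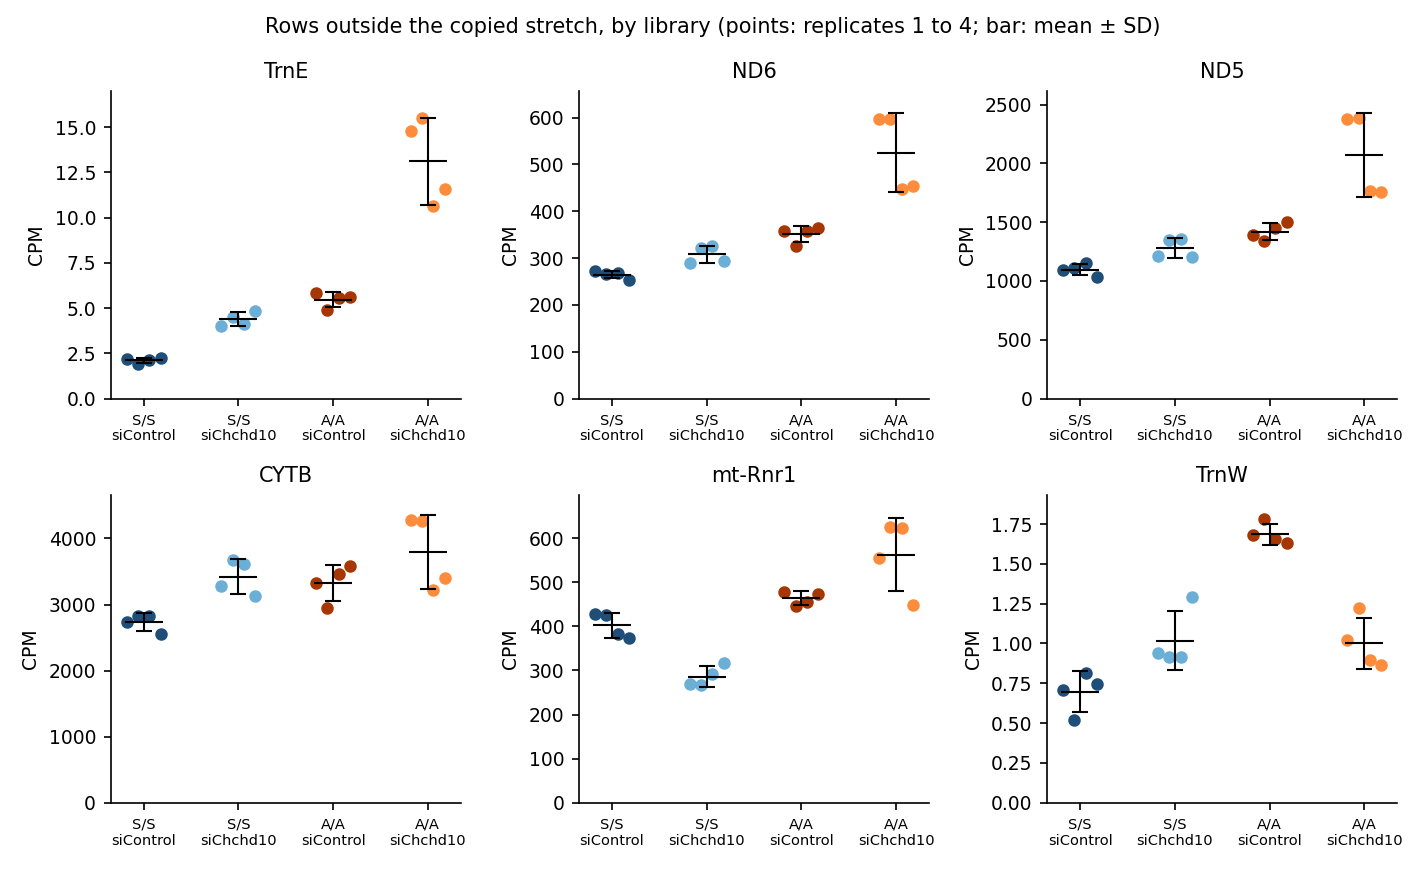
CPM in each of the 16 siRNA libraries for 6 rows outside the copied stretch: TrnE, ND6, ND5, CYTB, mt-Rnr1 and TrnW. TrnE steps up over the 4 groups without overlap, from 1.89 to 2.22 CPM in S/S siControl to 10.6 to 15.5 CPM in A/A siChchd10, while TrnW is highest in A/A siControl.

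Atf4 knockdown in S/S cells gave 0 calls among the 13 mRNAs, the 2 rRNAs and the 5 tRNAs that passed the filter, beside 0.538% of all genes called by edgeR (79 of 14697). At an unadjusted p under 0.05 there were 1549 genes, and DESeq2 also called 0 of the 13 mRNAs. The log2 difference was negative for 13 of 13 mRNAs, between -0.86 (ATP8) and -0.09 (COX2), with a median of -0.25 against -0.00 over all genes. ND6 had 335, 321, 277 and 374 CPM with the control shRNA and 228, 232, 267 and 323 CPM with shAtf4. The 2 groups overlapped, since replicate 4 with shAtf4 lay above replicates 2 and 3 of the controls. COX3 was separated, with 4.91 to 5.93 CPM in the controls and 3.65 to 4.77 CPM with shAtf4, beside 6.79% of all genes separated, but did not pass (-0.34, adjusted p = 0.50).

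The replicate numbers were taken as pairs from correlations in these same libraries, although replicate 3 of the controls correlated best with replicate 2. With the number as a block 5 of the 13 mRNAs and both rRNAs were lower, beside 20.2% of all genes called (10.1% lower). ND6 was lower by a log2 fold change of -0.32 (SE 0.07, adjusted p = 0.0081), ND5 by -0.25 (adjusted p = 0.032), CYTB by -0.24 (adjusted p = 0.024), ND2 by -0.22 (adjusted p = 0.037) and ND4 by -0.21 (adjusted p = 0.021). mt-Rnr2 (-0.31, adjusted p = 0.0049) and mt-Rnr1 (-0.22, adjusted p = 0.011) were lower as well, with all 4 pairs lower for each. mt-Rnr2 had 246, 241, 160 and 147 CPM with the control shRNA and 205, 165, 125 and 140 CPM with shAtf4. Among mRNAs, ND6, CYTB, ND4 and COX3 were lower in 4 of 4 pairs and ND5 and ND2 in 3 of 4. ND1 (-0.18, adjusted p = 0.056) and COX1 (-0.07, adjusted p = 0.51) did not pass with the block. Total counts ran from 17499735 in replicate 4 to 70932804 in replicate 1 of the controls and from 14067290 in replicate 1 to 59898203 in replicate 4 with shAtf4, so depth differed within pairs. Summed endothelial markers were 1.75 to 3.10 CPM in the controls and 0.563 to 1.29 CPM with shAtf4, without overlap, and the nuclear RNA Neat1 was lower with the block (84.9 against 60.7 CPM, adjusted p = 8.1e-04). The part of depth and of these RNAs in the differences was not tested.

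**Figure D5:**
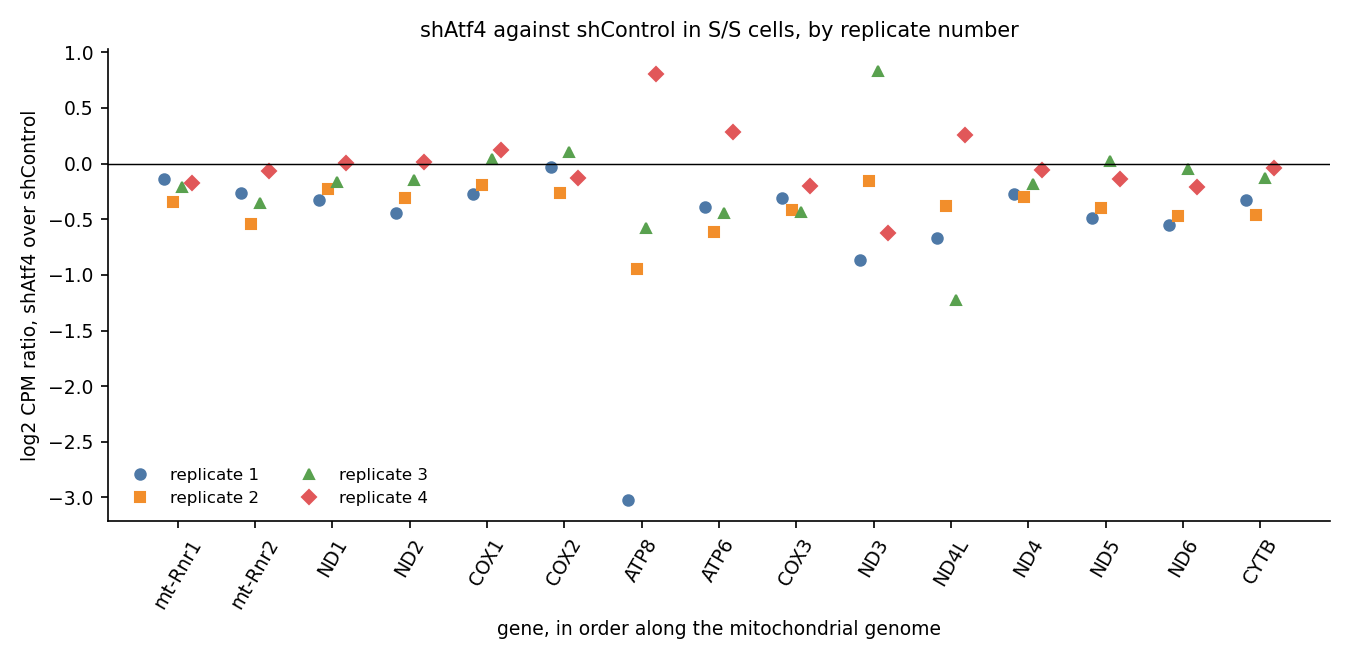
Log2 ratio of CPM, shAtf4 over shControl library of the same replicate number, for the 13 mRNAs and 2 rRNAs in gene order. ND6, CYTB, ND4, COX3 and both rRNAs lie below 0 in all 4 pairs, and the low-count rows ATP8, ND3 and ND4L scatter most.

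TrnP, TrnC, TrnL1 and TrnN, the highest tRNA rows of that table, differed by -0.11, -0.39, -0.07 and -0.62 with shAtf4, with adjusted p of 0.73 to 0.96. ND3 and TrnG, low in A/A cells, were present in these S/S libraries, ND3 at 1.76 to 4.67 CPM in the controls and 2.49 to 3.83 CPM with shAtf4, and TrnG at 0.183 to 1.11 CPM and 0.281 to 0.349 CPM. Gm10222 differed by -0.08 (adjusted p = 0.96).

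Nuclear genes that serve mitochondrial DNA were read as lists, beside all genes tested, of which 28.0% were called with siChchd10 in S/S cells (15.0% higher), 26.5% rose and 27.2% fell in A/A cells, and 35.6% were higher and 34.7% lower in A/A than in S/S siControl cells. Of 30 genes for maintenance and transcription of mitochondrial DNA, 2 rose and 2 fell with siChchd10 in S/S cells, and 14 rose and 7 fell in A/A cells (median 0.10). The exonuclease Mgme1 (0.41) and Mpv17 (0.39), an inner membrane protein needed to keep mitochondrial DNA, rose most in A/A cells, and the nucleotide carrier Slc25a36 fell by 0.63. In S/S cells Top1mt, the mitochondrial topoisomerase, fell by 0.34 and Mterf4 rose by 0.22. In A/A against S/S siControl cells 6 were higher and 16 lower (median -0.17), with the polymerase subunit Polg2 (0.50) and the nuclease Dna2 (0.50) higher and the ribonucleotide reductase subunit Rrm2b (-0.69) and the pyrimidine nucleotide carrier Slc25a33 (-0.68) lower. With shAtf4 0 of the 30 were called, and 2 were higher and 2 lower with the replicate block, beside 20.2% of all genes called.

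Of 41 genes for processing, stability and modification of mitochondrial RNA, 2 rose and 8 fell with siChchd10 in S/S cells, 13 rose and 7 fell in A/A cells, and 12 of the interactions passed with a positive and 1 with a negative sign (median 0.13), beside 16.7% and 18.9% of all genes. The tRNA methyltransferase Nsun3 rose in both, by 0.36 and 0.77, and Fastk, of which a mitochondrial form is needed for ND6 RNA, fell by 0.44 in A/A cells. The oligoribonuclease Rexo2 had an interaction of 0.50. In A/A against S/S siControl cells 16 were higher and 17 lower, so 33 of 41 were called beside 70.2% of all genes. In the same A/A against S/S siControl comparison the RNA granule protein Grsf1 was lower by a log2 fold change of -1.55 (SE 0.05). Trnt1, which adds the CCA end to tRNAs, was lower by -0.67, while Nsun3 (0.72) and the rRNA methyltransferase Mettl15 (0.64) were higher. With shAtf4 0 of the 41 were called, and 8 were higher with the replicate block, beside 10.1% of all genes higher with the block.

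The nuclear partners of the mitochondrial subunits are given beside them, and no test compared the 2 kinds. With siChchd10 in A/A cells, of 36 nuclear complex I subunits tested 31 rose and 0 fell (median 0.28), beside 26.5% of all genes higher and 27.2% lower, among them Ndufb10 (0.55) and Ndufa5 (0.55). In S/S cells 1 rose and 2 fell, and of the 36 interactions 31 passed with a positive and 0 with a negative sign, beside 16.7% and 18.9% of all genes. Of the 7 mitochondrial complex I mRNAs 5 rose in A/A cells and 2 in S/S cells. For complex III, 8 of 9 nuclear subunits rose in A/A cells, and for ATP synthase 14 of 16, while of their mitochondrial partners CYTB (0.19) and ATP8 (-0.45) did not pass and ATP6 fell. For complex IV 9 of 15 rose and 1 fell, and COX1, COX2 and COX3 did not pass. ATP6, ATP8, COX2 and COX3 lie wholly inside the copied stretch, where every count is uncertain. The call of ATP6 was lost in most fits that left out 1 library. In A/A against S/S siControl cells 5 nuclear complex I subunits were higher and 20 lower (median -0.19), beside 35.6% and 34.7% of all genes. With shAtf4 1 of the 36, Ndufs3 (0.54, adjusted p = 0.036), was called, beside 0.538% of all genes. With the replicate block 2 of the 36 were higher, as were 2 complex III subunits with 1 lower, 1 of complex IV and 1 of ATP synthase. The block called 10.1% of all genes higher and 10.1% lower.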

How the data were processed

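The authors deposited whole-number read counts per gene, not normalised, in 1 table for the 8 shRNA and 1 for the 16 siRNA libraries. Per the labels' protocols RNA was extracted with Trizol, prepared with the TruSeq Stranded Total RNA kit and sequenced on a NovaSeq instrument. The submitters' processing notes name mm10 and DESeq2 1.24.0. The sources used here do not give the aligner, counter, strand setting, annotation or rRNA removal.

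Counts were tested with edgeR 4.0.16 (R 4.3.3): filterByExpr on the groups, TMM, robust quasi-likelihood test, Benjamini-Hochberg over all genes tested (14697 in the shRNA and 18138 in the siRNA table), adjusted p under 0.05 as a call. CPM use TMM-scaled library sizes, and each table was fitted by itself. The filter kept 20 of 35 rows of mitochondrial DNA (13 mRNAs, 2 rRNAs, 5 tRNAs) and 33 of 36 (13, 2 and 18). The fit was tested on simulated data. Named were all mRNAs and rRNAs, the 4 highest tRNAs per table, up to 3 tRNA rises and 3 falls per comparison and up to 2 rises and 2 falls per nuclear gene list; other names were chosen after their values were seen. The members and lists were chosen with earlier results of these data known. Same-numbered shRNA libraries deviated together (r = 0.241 to 0.789 over genes), so their numbers were taken as pairs, although replicate 3 correlated best with replicate 2.

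Nuclear copies were sought with blastn 2.17.0 in GENCODE M21 transcripts (GRCm38; at least 85% identity over 60 bp, E at most 1e-10; the stretch at 99.5%). Matches opposite to the transcript strand and those on 1 other chromosome were dropped. Alternatives were DESeq2 1.42.0, RLE factors, no TMM, no filter, TMM without mitochondrial rows, a replicate block, 2 groups only, both replicate 4 shRNA libraries left out, and each library left out.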

Additional observations from a re-analysis of the deposited data

Results flagged for a closer look

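The siChchd10 effect differed between A/A and S/S cells, by the interaction test, for mt-Rnr1 (0.77), ND6 (0.36), ND2 (0.23), ND1 (0.22), TrnL1 (-0.65), TrnA (-1.29) and TrnW (-1.30), all log2 differences of A/A minus S/S. The same test called 35.6% of all genes. The calls of ND6, ND2, ND1 and TrnL1 were each lost in at least 1 fit that left out 1 library.

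In 142 sets of 4 libraries of 1 row and group, 9 held a library far from the other 3 by Dixon's criterion, and chance flags about 1 in 20 groups. The library was the highest for mt-Rnr2 in S/S siControl replicate 1 (923 CPM), TrnW in S/S siChchd10 replicate 4 (1.29 CPM), TrnA in S/S siControl replicate 3 (1.08 CPM) and TrnP in S/S siChchd10 replicate 4 (9.66 CPM). It was the lowest for ND3 in S/S shControl replicate 3 (1.76 CPM) and TrnP in S/S siControl replicate 2 (9.50 CPM). The other 3 sets hold a few counts in 1 A/A library and few or none in the rest: TrnG in siControl replicate 1 (0.132 CPM) and siChchd10 replicate 3 (0.0213 CPM), and TrnR in siChchd10 replicate 4 (0.0263 CPM).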

How the results depend on the processing

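The number of mRNAs called kept within 1.5 times its value in 92 alternative fits over the 6 comparisons and not in 5. With shAtf4 the 0 calls became 5 with the replicate block and 1 (ND6) without both replicate 4 libraries, and the 3 calls with siChchd10 in S/S cells became 5 when these 2 groups were fitted by themselves. Leaving out 1 library gave 0 to 0 calls with shAtf4, 2 to 3 and 5 to 8 with siChchd10 in S/S and A/A cells, 1 to 4 for the interaction, and 7 to 9 and 5 to 6 for A/A against S/S cells with siControl and siChchd10.

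The siRNA replicate numbers did not pair the libraries (correlation of deviations over genes between -0.171 and 0.157), and not every library correlated best with its own number, which was also so for replicate 3 of the shRNA libraries. With the replicate block the calls were 2 and 6 with siChchd10 in S/S and A/A cells, 2 for the interaction, and 8 and 5 for A/A against S/S cells. Over all genes, shAtf4 calls were 79, 491 with DESeq2, 1726 without both replicate 4 libraries, 2969 with the block and 13 to 536 without 1 library.

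Log2 values that changed sign were all close to 0 or on few counts, and none was called in either direction. In the interaction, COX1 became 6.80e-04 with DESeq2 and 6.77e-04 with RLE factors, COX3 became 0.0168 with either, 0.00973 with TMM without the mitochondrial rows and 0.00573 without the filter, and TrnL2 became -0.00862 without TMM. Leaving out 1 library gave, with shAtf4, -0.222 to 0.0751 for TrnL1, -0.216 to 0.0128 for COX1 and -0.193 to 0.0045 for TrnP. With siChchd10 in S/S cells it gave -0.0472 to 0.0127 for ND1, -0.00871 to 0.261 for ATP8 and -0.162 to 0.0173 for COX3, and in A/A cells -0.118 to 0.00726 for COX1, -0.405 to 0.333 for ND3 and -0.10 to 0.246 for ND4L. In the interaction it gave -0.0774 to 0.0506 for TrnN, -0.0722 to 0.0517 for COX1, -0.0161 to 0.168 for COX2, -0.172 to 0.0461 for ATP6, -0.0937 to 0.0853 for COX3, -0.635 to 0.0988 for ND3, -0.26 to 0.0852 for ND4L, -0.00881 to 0.177 for ND4 and -0.0444 to 0.097 for TrnL2. For ND1 in A/A against S/S cells with siChchd10 it gave -0.0264 to 0.0963. The cause was not tested.

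Depth limits the rows inside the copied stretch and most tRNAs, which hold few counts.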

Other observations

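Of 14 tested transcription factors and coactivators known to act on genes of mitochondrial function, 5 were higher and 8 lower in A/A than in S/S siControl cells, with a median log2 difference of -0.25 against 0.01 over all genes and 70.2% of all genes called by edgeR. The muscle-enriched regulator Perm1 was higher by 1.27 (6.21 against 2.57 CPM) and the deacetylase Sirt1 by 0.61. The coactivators Ppargc1a, at 11.2 against 19.2 CPM, and Ppargc1b, at 0.223 against 1.07 CPM, were lower, with log2 fold changes of -0.78 and -2.23. With siChchd10, 2 rose and 3 fell in S/S cells, beside 28.0% of all genes called, and 2 rose and 5 fell in A/A cells, beside 53.7%. In A/A cells Ppargc1b rose by 1.17 on low counts and Myc fell by 0.52, with 78.8 against 113 CPM. With shAtf4 0 of the 14 were called without and 2 with the replicate block, Pprc1 (adjusted p = 5.3e-04) and Myc (adjusted p = 0.011), both higher, beside 20.2% of all genes called.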
